A study of Mus musculus with 130 samples.

Results

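Gene expression in a mouse embryonic stem cell line whose only G9a is catalytically mutant was set against the wild-type line TT2. Embryonic stem cells are self-renewing cells of the inner cell mass of the blastocyst. The comparison rests on 1 RNA-seq library a group, so it used 2 of the 130 samples of the series. Its members were all genes with at least 1 CPM (the read count relative to library size, scaled as described under processing) in either library, without those on chromosome Y. They numbered 13501 of the 52550 genes in the files.

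The group G9a CM is a line of strain C57BL/6xCBA that lacks its own G9a (G9a-/-) and carries a G9a transgene with the changes Y1120V and Y1207F. It is labelled as 1 clone, G7, and the labels do not name the promoter that drives the transgene. WT TT2 has the same strain label and the genotype WT. Values are also given for G9a/GLP DKO, a TT2 derivative whose label has G9a and GLP both deleted, which shares WT TT2 as its control. TT2 cells given UNC0638, an inhibitor of G9a and GLP, were collected on day 2, 4 or 14. The inhibitor control is TT2 cells given the vehicle DMSO, and its sample title gives no day. The dose of UNC0638 is 250 nM in the sample titles and micromolar in the treatment protocol. The other series came from J1 cells of strain 129S4/SvJae: Dnmt3a/3b DKO, which lacks the de novo DNA methyltransferases, Dnmt1/3a/3b TKO, which also lacks the maintenance enzyme, and WT J1. All of these cells were grown on gelatin with serum and leukaemia inhibitory factor. RNA was made into libraries by Smart-seq2, a full-length cDNA method with PCR amplification.

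With 1 library a group there was no replicate spread and no test between conditions. A gene was called higher or lower when log2(CPM + 1) differed by at least 1 and the exact 95% Clopper-Pearson interval of the count ratio left out 1. Since PCR copies were not told apart by molecular identifiers, these intervals cover counting error only. "Higher" and "lower" below speak of the libraries. Total counts were 16530318 in G9a CM and 25609600 in WT TT2, and 11436808 to 25609600 over the 10 RNA libraries. Folds are CPM ratios without a pseudocount, and the log2 difference understates the change of genes with low counts.

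G9a (gene Ehmt2) and GLP (gene Ehmt1) form a heterodimer that places mono- and dimethylation on lysine 9 of histone H3, a mark of repressed chromatin. In embryonic stem cells the complex is known for silencing germline genes and genes of the 2-cell embryo. G9a also takes part in the DNA methylation of some of its targets, in part without its catalytic activity. A catalytically mutant protein is therefore used to set the enzyme's activity apart from its other roles.

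Ehmt2 (ENSMUSG00000013787.15, chromosome 17, 34898463 to 34914073, GRCm38) had 27.8 CPM in G9a CM and 14.55 CPM in WT TT2. The fold of 1.91 (interval 1.66 to 2.20) was under the size threshold. Counts of Ehmt2 take in both the deleted gene and the transgene, so this level does not check the label. Ehmt2 also varied among the other lines, with 17.94 CPM in G9a/GLP DKO, 77.19 CPM in the inhibitor control and 6.981 CPM in WT J1. Ehmt1 (ENSMUSG00000036893.17, chromosome 2, 24790769 to 24919643), whose protein pairs with G9a, had 47.89 CPM in G9a CM and 38.26 CPM in WT TT2 (1.25-fold, interval 1.14 to 1.38), also not called. In G9a/GLP DKO it had 7.948 CPM.

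The identity of the cells was checked against defining markers. All 11 embryonic stem cell markers were measured, 2 of them higher and 2 lower. Their summed level was 9624 CPM in G9a CM and 8202 CPM in WT TT2. A sum hides single markers. Pou5f1, one of the 11, was far lower in both libraries than in the inhibitor control, as given under pluripotency genes below. Of 11 trophoblast markers 7 were measured, 3 of them higher, with a sum of 88.13 CPM in G9a CM and 33.15 CPM in WT TT2, and Cdx2 and Tpbpa were at 0 in both. Of 9 fibroblast markers 3 were measured, 2 of them higher, summing to 11.66 CPM in G9a CM and 4.208 CPM in WT TT2, and Col3a1 and Postn were at 0 in both. Primitive endoderm markers summed to 237.6 CPM in G9a CM and 183.1 CPM in WT TT2, and the neural, mesoderm and blood markers to at most 44.95 CPM in either. The part of trophoblast or fibroblast RNA in the results was not tested. In bulk RNA, more cells of a type and more RNA per cell cannot be told apart.

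Sequences upstream of a RefSeq transcript start are shown for the genes with the largest increases because G9a targets are often described by the CpG content of their promoters. Each is the 250 bases before the RefSeq transcript start, 5′ to 3′ on the gene's strand, GRCm38.p6, with every CG in capitals and the letters of an E-box (CACGTG), the site type read by the germline repressor Mga and Max, also in capitals. The first, Ehmt2 (chr17:34898224-34898473, plus strand), is the targeted gene and is shown for comparison. Pramel6 (chr2:87506315-87506564, plus), Elobl (chr11:88966932-88967181, minus), Gadd45g (chr13:51846425-51846674, plus) and Xlr5a (chrX:73117703-73117952, minus) head the list of protein-coding genes higher in G9a CM. The Xlr5a window lies inside the span that RefSeq gives for the whole gene (73107621 to 73118717), so it precedes an internal start and not the outermost one. The last bases of the Ehmt2 window likewise lie inside the gene span given above.
Ehmt2: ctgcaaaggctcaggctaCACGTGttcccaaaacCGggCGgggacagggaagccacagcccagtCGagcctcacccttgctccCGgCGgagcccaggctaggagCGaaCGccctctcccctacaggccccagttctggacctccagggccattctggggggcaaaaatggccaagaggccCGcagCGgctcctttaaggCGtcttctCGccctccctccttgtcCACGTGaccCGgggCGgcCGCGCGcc
Pramel6: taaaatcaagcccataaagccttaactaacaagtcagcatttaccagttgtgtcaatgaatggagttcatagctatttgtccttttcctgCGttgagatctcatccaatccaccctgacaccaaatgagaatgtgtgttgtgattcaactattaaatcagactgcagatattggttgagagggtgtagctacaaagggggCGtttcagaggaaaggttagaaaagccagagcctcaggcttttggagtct
Elobl: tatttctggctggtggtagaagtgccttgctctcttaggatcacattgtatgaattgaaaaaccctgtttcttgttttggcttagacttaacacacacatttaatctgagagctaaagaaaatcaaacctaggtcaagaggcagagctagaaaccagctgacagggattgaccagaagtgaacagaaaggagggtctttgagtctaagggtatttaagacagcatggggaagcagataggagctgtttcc
Gadd45g: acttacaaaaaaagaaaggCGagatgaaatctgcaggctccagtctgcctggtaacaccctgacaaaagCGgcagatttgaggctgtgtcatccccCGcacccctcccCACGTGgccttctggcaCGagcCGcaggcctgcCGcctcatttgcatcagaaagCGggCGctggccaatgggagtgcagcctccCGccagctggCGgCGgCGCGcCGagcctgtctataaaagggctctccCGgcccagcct
Xlr5a: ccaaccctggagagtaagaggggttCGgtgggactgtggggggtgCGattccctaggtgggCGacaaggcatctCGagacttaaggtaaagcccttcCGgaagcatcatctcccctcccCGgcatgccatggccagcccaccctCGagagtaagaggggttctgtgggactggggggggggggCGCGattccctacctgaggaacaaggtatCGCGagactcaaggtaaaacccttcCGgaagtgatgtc
The Ehmt2 window holds 18 CpG, Gadd45g 16 and Xlr5a 12, whereas Pramel6 holds 2 and Elobl 0. Among the 5 windows CACGTG occurs in those of Ehmt2 and Gadd45g.

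In G9a CM 729 genes were higher than in WT TT2, which is 5.40% of the genes measured, and 682 were lower, which is 5.05%. Counts of called list members below are read against these shares. The other 12090 were called neither way, and the median log2 difference over all measured genes was -0.03. The larger differences leaned upwards. At a log2 difference of at least 2 there were 115 higher and 45 lower genes, at 3 there were 33 and 9, and at 4 there were 8 and 3. Of the higher genes 263 were under 1 CPM in WT TT2 and 29 had no count there, whereas 144 of the lower genes were under 1 CPM in G9a CM and 10 had no count. The genes just past the threshold had log2 differences of 1.0002 and -1.0001. Protein-coding genes made up 634 of the higher and 575 of the lower calls, long noncoding RNAs 42 and 43, and pseudogenes 16 and 20. The split depended on the unit: with the deposited TPM (which corrects for gene length), 858 genes were higher and 466 lower, and 64.8% of calls were then higher against 51.7% with CPM. TPM also moved the median of all genes to 0.07. The split moved with the scaling of CPM as well. The share of calls that were higher was 46.3% with TMM factors over all genes and 56.8% with total counts.

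**Figure D1:**
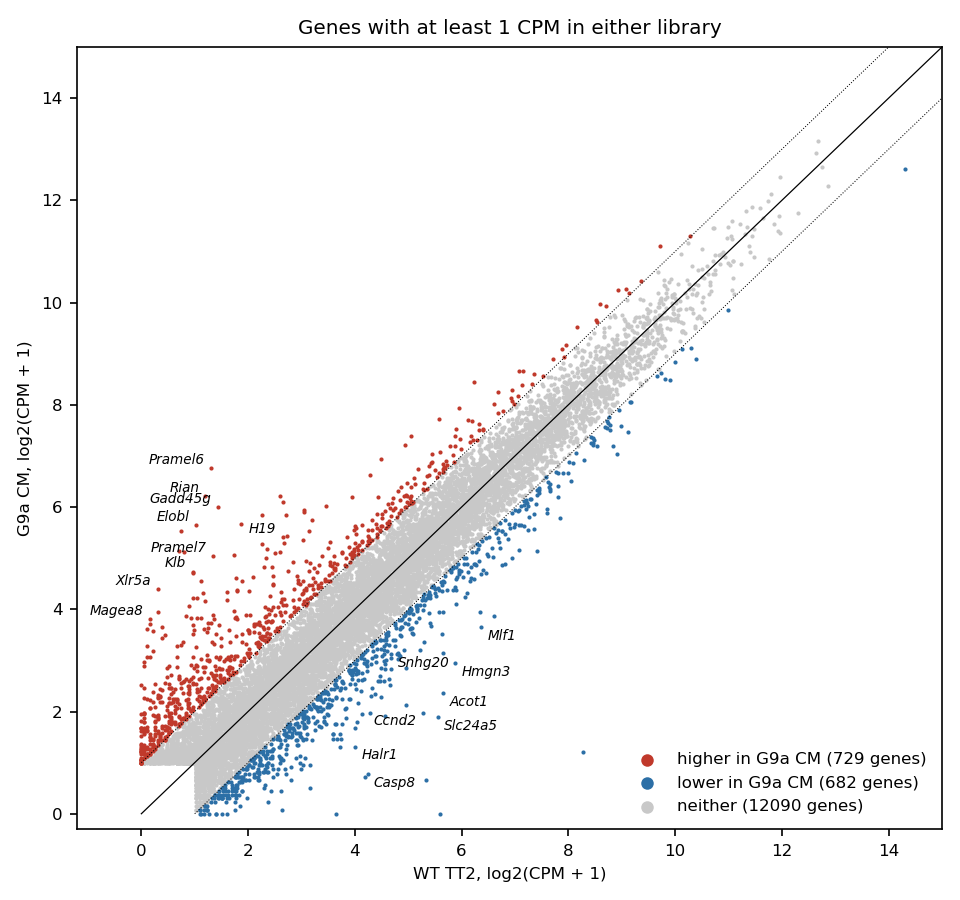
Level in G9a CM (vertical axis) against WT TT2 (horizontal axis), both as log2(CPM + 1), for 13501 genes. Red points mark the 729 genes called higher and blue points the 682 called lower; dotted lines stand at a log2 difference of 1 either way, and the genes farthest above the diagonal, such as Pramel6 and Rian, are nearly silent in WT TT2.

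Wild-type libraries differed from each other in more genes than this, which bears on every gene below. The inhibitor control, also TT2, had 3448 genes higher (25.2%) and 3008 lower (22.0%) than WT TT2. WT J1 had 1712 higher (12.5%) and 1505 lower (11%) than WT TT2. G9a CM was therefore also set against these libraries, in comparisons that share the G9a CM library with the main one. Against the inhibitor control 2808 genes were higher in G9a CM (20.3%) and 3392 lower (24.5%), and against WT J1 2155 were higher (15.4%) and 2361 lower (16.9%). Of the 729 higher genes, 423 were also higher against the inhibitor control and 84 were lower, 512 were also higher against WT J1 and 17 lower, and 309 were higher against all 3. Of the 682 lower genes, 182 were also lower against the inhibitor control and 60 higher, 357 were also lower against WT J1 and 14 higher, and 81 were lower against all 3. Of the 33 genes higher by a log2 difference of at least 3, 32 were also higher against the inhibitor control and 32 against WT J1. Of the genes lower by that much, 7 of 8 measured were also lower against the inhibitor control and 4 of 7 against WT J1. These genes were picked for extreme values in the G9a CM library that all 3 comparisons use, which favours such counts.

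The protein-coding gene with the largest increase was Pramel6 (ENSMUSG00000025838.12, chromosome 2, 87506565 to 87510865), a member of the PRAME family of leucine-rich repeat proteins, many of which are expressed in germ cells and the early embryo. It had 107.7 CPM in G9a CM and 1.455 CPM in WT TT2, a 74.01-fold difference (interval 53.49 to 105.5). It had 271.3 CPM in G9a/GLP DKO. In the inhibitor series it stood at 0.8813 CPM in the control, 6.973 CPM on day 2, 26.8 CPM on day 4 and 50.95 CPM on day 14. It had 3.167 CPM in Dnmt3a/3b DKO, 18.18 CPM in Dnmt1/3a/3b TKO and 0.06712 CPM in WT J1. The level in G9a CM was thus above every library but G9a/GLP DKO, and the 3 wild-type libraries all lay below 2 CPM. Its neighbour Pramel7, whose protein is known in mouse embryonic stem cells for promoting degradation of the DNA methylation factor UHRF1, had 31.87 CPM in G9a CM and 1.534 CPM in WT TT2 (20.78-fold, interval 15.0 to 29.55). Of 16 PRAME-family genes 4 were measured, 2 were higher and 0 lower. The others were Pramef8, with 36.23 CPM in G9a CM and 19.9 CPM in WT TT2, and Pramef12, with 4.124 CPM in G9a CM and 4.169 CPM in WT TT2.

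Elobl, an elongin B-like gene, followed with 49.31 CPM in G9a CM and 1.022 CPM in WT TT2 (48.22-fold, interval 32.68 to 74.26). In contrast to Pramel6 it stayed at 0.5599 to 2.26 CPM on the 3 days of UNC0638, against 0.8813 CPM in the inhibitor control. Gadd45g, a growth arrest and DNA damage-inducible gene, had 63.21 CPM in G9a CM and 1.691 CPM in WT TT2 (37.38-fold, interval 27.56 to 51.96). It too stayed low under the inhibitor, at 1.842 to 3.616 CPM on the 3 days against 2.424 CPM in the inhibitor control, and had 18.18 CPM in G9a/GLP DKO. Klb, a co-receptor for endocrine fibroblast growth factors, had 25.68 CPM in G9a CM and 0.9438 CPM in WT TT2, a 27.21-fold difference. Its inhibitor series went 0.5141 CPM in the control, 2.545 on day 2, 3.209 on day 4 and 6.005 on day 14. Slc5a4b, of the sodium/glucose cotransporter family, had 49.95 CPM in G9a CM and 2.635 CPM in WT TT2, an 18.96-fold difference. Aass, an enzyme of lysine breakdown, had 56.14 CPM in G9a CM and 3.815 CPM in WT TT2 (14.72-fold), and reached 310.4 CPM in Dnmt3a/3b DKO against 2.081 CPM in WT J1.

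Other genes near the head of the order belong to tissues far from the embryonic stem cell. D1Pas1, a testis DEAD-box helicase, had 17.55 CPM in G9a CM and 0.9438 CPM in WT TT2, although the inhibitor control had 5.141 CPM and WT J1 10.61 CPM. Tph2, the serotonin-synthesising enzyme of neurons, had 18.85 CPM in G9a CM and 1.219 CPM in WT TT2. Nckap1l, a haematopoietic subunit of the actin-regulating WAVE complex, had 10.25 CPM in G9a CM and 0.3539 CPM in WT TT2. Igll1, a surrogate immunoglobulin light chain of early B cells, had 23.39 CPM in G9a CM and 2.399 CPM in WT TT2. Among lists of such tissues, 10 of 47 measured germline and meiosis genes, 0 of 14 neural and ectoderm genes and 0 of 3 blood genes were higher, where 5.40% of all genes were. At that share the counts of 0 say little. Apom, an apolipoprotein, Lgals9, a galectin, Crxos, Akr1cl and Egfl6 were higher by 8.214 to 14.65-fold.

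**Figure D2:**
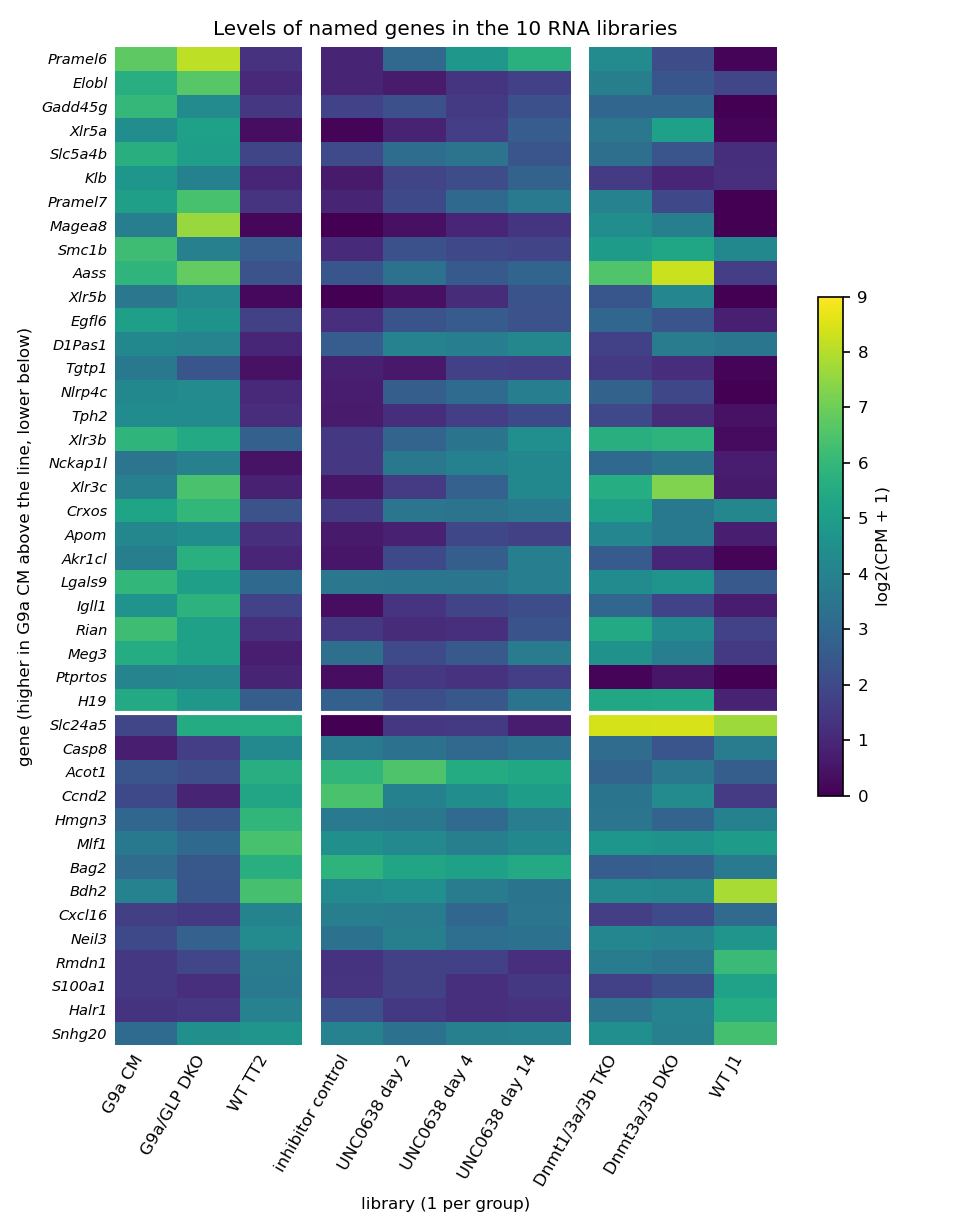
Heat map of log2(CPM + 1) in the 10 libraries (columns) for 28 named genes higher and 14 lower in G9a CM than in WT TT2 (rows), with darker cells low and brighter cells high. Most of the upper rows are bright in G9a CM and G9a/GLP DKO and dark in the 3 wild-type libraries, whereas several lower rows, such as Slc24a5 and Hmgn3, also differ widely among the wild-type libraries.

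Genes of the 2-cell embryo, which are active for a short time at zygotic genome activation and in a rare fraction of embryonic stem cells, were measured at low levels. Of 28 listed genes 11 were measured, 10 were higher and 0 lower, with a median log2 difference of 1.44 against -0.03 for all genes. Only 2 of the 11 reached 1 CPM in WT TT2, so the rest could be measured only by being high in G9a CM. With no minimum level, the counting interval lay above 1 for 17 of the 28 and below 1 for 0. Their summed level was 37.29 CPM in G9a CM and 6.41 CPM in WT TT2. Zscan4a, of the zinc finger cluster that marks this state, had 4.83 CPM in G9a CM and 0.4326 CPM in WT TT2 (11.17-fold, interval 5.925 to 23.24). It had 37.38 CPM in G9a/GLP DKO, 0.2203 CPM in the inhibitor control, and 4.275, 8.081 and 77.55 CPM on days 2, 4 and 14. The level of Zscan4a in G9a CM thus lay between those of days 2 and 4. Gm5662 had 7.069 CPM in G9a CM and 1.337 CPM in WT TT2, and Zscan4c 3.77 CPM in G9a CM and 0.5899 CPM in WT TT2. Both were below their day 2 levels of 9.365 CPM for Gm5662 and 6.515 CPM for Zscan4c. Copies of Zscan4 are near-identical, so single members are uncertain.

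Gene families on the X chromosome with testis or placental expression had most of their measured members higher. Of 10 Xlr genes (X-linked lymphocyte-regulated) 9 were measured, of which 8 were higher and 0 lower (median 2.97). In WT TT2 4 of the 9 reached 1 CPM. Without the minimum, 9 of the 10 had an interval wholly above 1 and 0 wholly below. Xlr5a had 20.15 CPM in G9a CM and 0.236 CPM in WT TT2, an 85.38-fold difference (interval 38.83 to 234.3). It had 0.07344 CPM in the inhibitor control, and 0.8143, 2.139 and 5.101 CPM on days 2, 4 and 14. In the DNA methyltransferase mutants it had 32.69 CPM in Dnmt3a/3b DKO and 10.73 CPM in Dnmt1/3a/3b TKO, against 0.06712 CPM in WT J1. Xlr3b had 56.38 CPM in G9a CM and 5.545 CPM in WT TT2, Xlr3c 13.67 CPM in G9a CM and 0.7865 CPM in WT TT2, and Xlr3a 145.4 CPM in G9a CM and 57.42 CPM in WT TT2. The member not called was Xlr4a, with 20.79 CPM in G9a CM and 11.37 CPM in WT TT2. In the comparisons that reuse the G9a CM library, 9 of 9 were higher against the inhibitor control and 9 of 9 against WT J1. Of these 4 reached 1 CPM in the inhibitor control and 0 in WT J1, so against WT J1 they were measured only through G9a CM.

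Of 24 Magea and Mageb genes, cancer-testis antigens normally active in male germ cells, 9 were measured, 7 were higher and 0 lower (median 1.90). Magea8 had 12.96 CPM in G9a CM and 0.118 CPM (3 counts) in WT TT2, and was at 0 in the inhibitor control and WT J1. It had 193.4 CPM in G9a/GLP DKO but only 1.614 CPM on day 14 of UNC0638. Magea5 had 8.777 CPM in G9a CM and 0.07865 CPM in WT TT2. Magea6 and Magea3 had 2.887 and 2.062 CPM in G9a CM and no count in WT TT2, at least 24.47-fold and at least 17.48-fold higher against a floor of 3 counts a library. Of the measured members 1 reached 1 CPM in WT TT2, and of all 24 there were 9 with an interval wholly above 1 and 1 wholly below.

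Rhox genes, a cluster of reproductive homeobox genes, were higher for 6 of 11 measured members of 34, with 0 lower (median 1.00). Of the 11, 6 reached 1 CPM in WT TT2, and of all 34 there were 12 with an interval wholly above 1 and 1 wholly below. Rhox2a had 5.596 CPM in G9a CM and 0.4719 CPM in WT TT2 (11.86-fold), whereas Rhox6 had 116.9 CPM in G9a CM and 57.18 CPM in WT TT2 (2.045-fold). Rhox5, expressed in all 3 wild-type libraries, had 870.1 CPM in G9a CM and 461.8 CPM in WT TT2 and was not called. Over the whole X chromosome 44 of 498 measured genes were higher (8.84%) and 20 lower (4.02%), and the median of its genes with at least 10 CPM was -0.06. Members of the Magea, Xlr and Rhox2 families share near-identical sequence, and reads may be split among copies.

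Oocyte and maternal-effect genes, whose products are stored in the egg, were higher for 5 of 11 measured members of 30 and lower for 0 (median 0.94). Khdc3, a component of the subcortical maternal complex, had 166.8 CPM in G9a CM and 32.29 CPM in WT TT2 (5.165-fold). Nlrp4f, an oocyte NLR-family gene, had 63.62 CPM in G9a CM and 10.03 CPM in WT TT2 (6.344-fold), and Nlrp4c, which leads by fold, had 17.61 CPM in G9a CM and 1.062 CPM in WT TT2. Zp3, a protein of the egg coat, had 38.17 CPM in G9a CM and 15.02 CPM in WT TT2. Dppa3, the maternal factor Stella, had 1055 CPM in G9a CM and 548.6 CPM in WT TT2 and was not called (1.924-fold).

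Germline and meiosis genes outside these families were called in both directions. Of 55 listed genes 47 were measured, 10 were higher (5.40% of all genes were) and 4 lower (median 0.22). Smc1b, the meiotic cohesin subunit, led with 72.99 CPM in G9a CM and 5.073 CPM in WT TT2 (14.39-fold, interval 11.99 to 17.38). Its inhibitor series went 1.102 CPM in the control and 3.715, 2.852 and 2.518 CPM on days 2, 4 and 14. WT J1 had 17.45 CPM, between G9a CM and WT TT2. Zcwpw1, a reader of histone methylation at meiotic recombination sites, had 31.28 CPM in G9a CM and 4.051 CPM in WT TT2, and 30.81 CPM in WT J1. Rpl10l, the testis paralogue of a ribosomal protein, had 121.3 CPM in G9a CM and 21.39 CPM in WT TT2 (5.67-fold), and Prdm1, a regulator of germ cell fate, had 29.04 CPM in G9a CM and 7.944 CPM in WT TT2. Ddx4, the germ cell RNA helicase, was just past the threshold at 55.14 CPM in G9a CM and 26.7 CPM in WT TT2. Dazl, a classic germline target of the complex, had 11.72 CPM in G9a CM and 9.517 CPM in WT TT2, Mael 12.84 CPM in G9a CM and 9.163 CPM in WT TT2 and Sycp3 27.33 CPM in G9a CM and 34.41 CPM in WT TT2, none called. Tex11, an X-linked meiosis gene, was lower, with 7.658 CPM in G9a CM and 27.41 CPM in WT TT2.

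**Figure D3:**
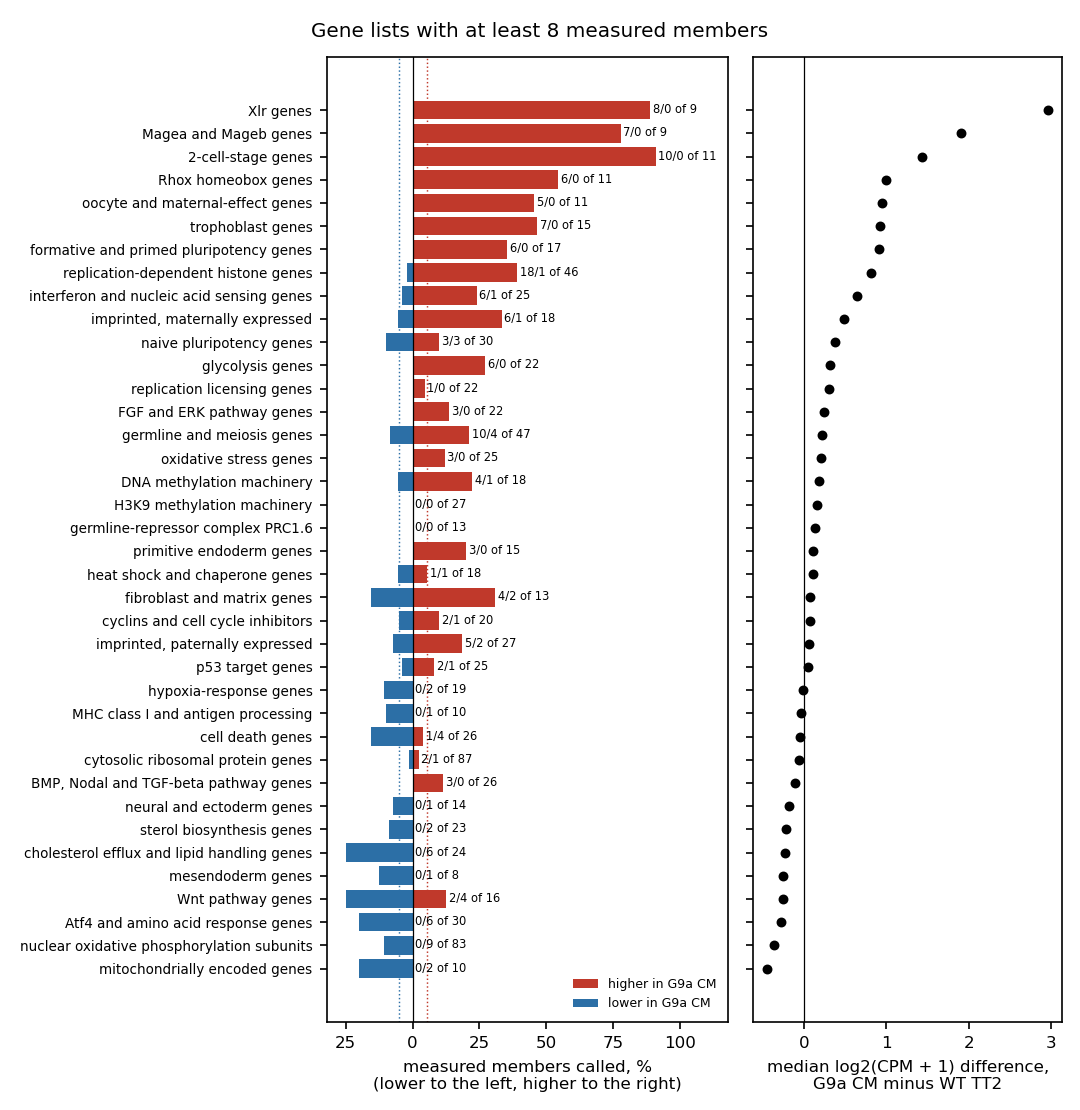
Left, percent of the members of gene lists with at least 8 measured members that were called higher (red, to the right) or lower (blue, to the left) in G9a CM than in WT TT2, with dotted lines at 5.40% and 5.05%, the shares over all genes. Right, median log2 difference of each list. The 2-cell, Xlr, Magea and Mageb and Rhox lists have the largest shares of higher members, from 6 of 11 to 10 of 11, and no member called lower. In WT TT2, in that order, 2 of 11, 4 of 9, 1 of 9 and 6 of 11 measured members reached 1 CPM. The rest were measured only through G9a CM, so these shares are partly fixed by the filter.

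Long noncoding RNAs of the imprinted Dlk1-Dio3 domain on chromosome 12, which are expressed from the maternal allele only, include Rian and Meg3, which had the largest positive log2 differences of all measured genes after Pramel6. Rian had 73.05 CPM in G9a CM and 1.298 CPM in WT TT2 (56.29-fold, interval 39.86 to 82.14). Meg3 (chromosome 12, 109540996 to 109571729) had 45.54 CPM in G9a CM and 0.6686 CPM in WT TT2 (68.11-fold, interval 42.26 to 117.5). Mirg had 4.713 CPM in G9a CM and no count in WT TT2, at least 39.94-fold higher. Rtl1, a paternally expressed gene whose antisense transcript is maternal, had 4.477 CPM in G9a CM and 0.03933 CPM, 1 count, in WT TT2. No source used here says if strand entered the counting, so Rtl1 and its antisense cannot be told apart. The paternal protein-coding genes of the domain stayed low, with 0.4713 CPM of Dlk1 in G9a CM and 0.1573 CPM in WT TT2, and 0.05891 CPM of Dio3 in G9a CM and 0 in WT TT2.

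Both RNAs were also high in G9a/GLP DKO, whereas the inhibitor series showed no increase of this size. Rian had 34.86 CPM in G9a/GLP DKO, 1.763 CPM in the inhibitor control, and 1.171, 1.307 and 3.939 CPM on days 2, 4 and 14. Meg3 had 34.55 CPM in G9a/GLP DKO, 8.446 CPM in the inhibitor control, and 3.054, 4.516 and 12.53 CPM on the 3 days. The 2 TT2 controls thus differed from each other in Meg3 by more than any inhibitor day differed from its control. In the J1 series Rian had 18.58 CPM in Dnmt3a/3b DKO and 41.95 CPM in Dnmt1/3a/3b TKO, against 2.416 CPM in WT J1. H19, the maternal long noncoding RNA of the Igf2 domain, had 41.71 CPM in G9a CM and 5.27 CPM in WT TT2 (7.914-fold), and its partner Igf2 had 0.648 CPM in G9a CM and 0.236 CPM in WT TT2.

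Across imprinting, 6 of 18 measured maternally expressed genes of 27 were higher and 1 lower (median 0.49), and 5 of 27 measured paternally expressed genes of 35 were higher and 2 lower (median 0.06), or 3 and 2 with TPM. Ascl2, a maternally expressed trophoblast factor, had 19.68 CPM in G9a CM and 2.478 CPM in WT TT2 (7.941-fold), and Phlda2, which restrains placental growth, was lower with 81.35 CPM in G9a CM and 174.8 CPM in WT TT2. Among paternally expressed genes, Sfmbt2 had 52.55 CPM in G9a CM and 8.219 CPM in WT TT2, Peg3 209.7 CPM in G9a CM and 46.84 CPM in WT TT2 and Usp29, which shares the Peg3 promoter region, 11.13 CPM in G9a CM and 2.124 CPM in WT TT2. Sgce was lower, with 5.478 CPM in G9a CM and 21.24 CPM in WT TT2. By CPM neither parental class was called in 1 direction only, whereas with TPM 5 maternally expressed genes were higher and 0 lower.

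Other noncoding RNAs past the rule for naming were Ptprtos, with 15.67 CPM in G9a CM and 0.8652 CPM in WT TT2, and Platr7, with 18.14 CPM in G9a CM and 4.326 CPM in WT TT2. Lower ones were Halr1, of the Hoxa locus, with 1.473 CPM in G9a CM and 15.02 CPM in WT TT2, Snhg20 with 7.717 CPM in G9a CM and 24.7 CPM in WT TT2, and Gas5, a host of small nucleolar RNAs on chromosome 1, with 357.2 CPM in G9a CM and 957 CPM in WT TT2. The inhibitor control had 276.1 CPM of Gas5, below G9a CM.

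Of 27 measured genes of the H3K9 methylation machinery 0 were called by CPM (median 0.16) and 1 was higher with TPM, counts near the 5.40% and 5.05% of all genes. Setdb1 had 47.07 CPM in G9a CM and 51.83 CPM in WT TT2, Suv39h1 18.26 CPM in G9a CM and 20.02 CPM in WT TT2, and Trim28 549.0 CPM in G9a CM and 409.4 CPM in WT TT2. Of 13 measured genes of PRC1.6, a germline-repressing Polycomb complex, 0 were called (median 0.13), also near that background. Pcgf6, a subunit particular to that complex, had 142.6 CPM in G9a CM and 98.83 CPM in WT TT2.

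Of 18 genes of the DNA methylation machinery 4 were higher and 1 lower (median 0.19), and the higher ones include all 3 de novo components. Dnmt3l, the cofactor without catalytic activity, had 348.6 CPM in G9a CM and 73.82 CPM in WT TT2 (4.722-fold, interval 4.482 to 4.976). Dnmt3b had 301.7 CPM in G9a CM and 101.9 CPM in WT TT2 (2.96-fold), and Dnmt3a 145.3 CPM in G9a CM and 53.92 CPM in WT TT2 (2.695-fold). The other wild-type libraries bracketed these values. Dnmt3b had 511.2 CPM and Dnmt3a 207.4 CPM in the inhibitor control, above G9a CM, and in WT J1 26.92 CPM and 17.38 CPM, below WT TT2. Dnmt3l was higher in G9a CM than in all 3 wild-type libraries, with 161.7 CPM in the inhibitor control and 33.7 CPM in WT J1. Uhrf1, which guides maintenance methylation, had 118.4 CPM in G9a CM and 59.89 CPM in WT TT2 and was just short of the threshold (1.977-fold). Mbd1, a methyl-CpG binding protein, was lower, with 2.651 CPM in G9a CM and 7.669 CPM in WT TT2.

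Pluripotency genes were called in both directions. Of 30 naive pluripotency genes 3 were higher and 3 lower (median 0.37), or 5 and 1 with TPM. Over all genes 5.40% were higher and 5.05% lower, so the counts by CPM lie little above that background. Nanog had 437.5 CPM in G9a CM and 260.5 CPM in WT TT2, Sox2 63.03 CPM in G9a CM and 91.83 CPM in WT TT2 and Klf4 34.99 CPM in G9a CM and 48.84 CPM in WT TT2, none called. Zfp42, on chromosome 8, was lower with 919.8 CPM in G9a CM and 2025 CPM in WT TT2, as were Esrrb with 60.79 CPM in G9a CM and 127 CPM in WT TT2 and Nr5a2, on chromosome 1, with 11.43 CPM in G9a CM and 32.72 CPM in WT TT2. Of 17 measured formative and primed genes 6 were higher and 0 lower (median 0.91). Grhl2, an epithelial transcription factor, had 25.8 CPM in G9a CM and 5.702 CPM in WT TT2, and Fgf5, the classic primed marker, 3.476 CPM in G9a CM and 0.8259 CPM in WT TT2. Against the inhibitor control only 2 of 17 were higher and 2 lower, whereas against WT J1 10 of 17 were higher and 1 lower. Pou5f1, with 33.34 CPM in G9a CM and 12.47 CPM in WT TT2, had 455.3 CPM in the inhibitor control.

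Of 15 measured trophoblast genes 7 were higher and 0 lower (median 0.93). Besides Ascl2 these included the keratin Krt7, with 11.9 CPM in G9a CM and 1.73 CPM in WT TT2 (6.877-fold), 2.203 CPM in the inhibitor control and 0.3356 CPM in WT J1. Gata3, which specifies the lineage, had 1.119 CPM in G9a CM and 0.8652 CPM in WT TT2, and Elf5 0.4713 CPM in G9a CM and 0.118 CPM in WT TT2. Summed over the list, levels were 498.5 CPM in G9a CM and 539 CPM in WT TT2. Of its members 5 were higher and 7 lower against the inhibitor control, and 8 higher and 5 lower against WT J1. Of 15 measured primitive endoderm genes 3 were higher and 0 lower, or 1 and 0 with TPM. Of 14 neural and ectoderm genes 0 were higher and 1 lower, and of 8 mesendoderm genes 0 and 1. Of 13 fibroblast and matrix genes 4 were higher and 2 lower, or 2 and 2 with TPM. Of 39 Hox genes 0 reached 1 CPM in either library.

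Replication-dependent histone genes were higher for 18 of 46 measured members of 70 and lower for 1 (median 0.81). Hist1h3c had 11.43 CPM in G9a CM and 1.376 CPM in WT TT2 (8.303-fold), and Hist1h2bj 8.954 CPM in G9a CM and 1.573 CPM in WT TT2 (5.692-fold). The increase lay in low-level members: 30 of the 46 reached 1 CPM in WT TT2, and the rest were measured only through G9a CM. With no minimum, 39 of the 70 had an interval wholly above 1 and 3 wholly below. The summed level of the list was 420.7 CPM in G9a CM and 429.8 CPM in WT TT2. Against the inhibitor control 30 of 47 were higher and 0 lower, and against WT J1 17 of 47 were higher and 1 lower. Mature transcripts of these genes lack the poly(A) tail on which Smart-seq2 priming depends.

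Interferon and nucleic acid sensing genes were higher for 6 of 25 measured members of 38 and lower for 1 (median 0.64), and their summed level was 2324 CPM in G9a CM and 1207 CPM in WT TT2. The sum was carried mainly by Ifitm1, an interferon-inducible membrane protein abundant in embryonic stem cells, with 1370 CPM in G9a CM and 653.2 CPM in WT TT2. Zbp1, a sensor of Z-form nucleic acid, had 21.44 CPM in G9a CM and 4.562 CPM in WT TT2 (4.7-fold), 2.056 CPM in the inhibitor control and 1.141 CPM in WT J1. Oasl2 had 9.013 CPM in G9a CM and 2.91 CPM in WT TT2, and Tgtp1, an interferon-inducible GTPase, 11.55 CPM in G9a CM and 0.3146 CPM in WT TT2. Of 10 genes of MHC class I and antigen processing 0 were higher and 1 lower, namely B2m with 24.8 CPM in G9a CM and 81.48 CPM in WT TT2, although the inhibitor control had 19.02 CPM.

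At the head of the lower genes, Slc24a5, an ion exchanger of melanosomes known for its part in pigmentation, had 2.71 CPM in G9a CM and 45.93 CPM in WT TT2 (16.95-fold lower). Its wild-type levels were 0 CPM in the inhibitor control and 204.5 CPM in WT J1, so the difference was within the range of the wild-type libraries. Casp8, an initiator caspase on chromosome 1, had 0.7069 CPM in G9a CM and 17.89 CPM in WT TT2 (25.31-fold lower, interval 14.35 to 49.35), 11.75 CPM in the inhibitor control and 11.95 CPM in WT J1, so G9a CM lay below all 3. Acot1, an acyl-CoA thioesterase, had 4.124 CPM in G9a CM and 49.51 CPM in WT TT2, 58.61 CPM in the inhibitor control and 5.37 CPM in WT J1. Hmgn3, a nucleosome-binding protein, had 6.716 CPM in G9a CM and 58.05 CPM in WT TT2, but 11.9 CPM in the inhibitor control and 14.23 CPM in WT J1.

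Ccnd2, which encodes cyclin D2, had 2.945 CPM in G9a CM and 37.75 CPM in WT TT2 (12.82-fold lower, interval 9.643 to 17.39) and 0.8657 CPM in G9a/GLP DKO. Its inhibitor series went 84.97 CPM in the control, 14.2 on day 2, 20.08 on day 4 and 30.48 on day 14, so it was also lower on each day. WT J1 had 1.947 CPM, below G9a CM. Next in the order were Mlf1 with 11.55 CPM in G9a CM and 81.76 CPM in WT TT2, Bag2, an Hsp70 cochaperone, with 7.894 CPM in G9a CM and 49.59 CPM in WT TT2, and Bdh2, a hydroxybutyrate dehydrogenase, with 14.43 CPM in G9a CM and 80.19 CPM in WT TT2. Cxcl16, a chemokine, had 2.18 CPM in G9a CM and 15.1 CPM in WT TT2, and Neil3, a DNA glycosylase, 2.945 CPM in G9a CM and 18.44 CPM in WT TT2. Of the 9 genes lower by a log2 difference of at least 3, 5 are pseudogenes or transcripts without a standard symbol. Among these the pseudogene Gm10260, named after its values were seen, had 1.296 CPM in G9a CM and 307.5 CPM in WT TT2. It had 109.2 CPM in the inhibitor control and 1.745 CPM in WT J1, so WT J1 was nearly as low as G9a CM.

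Stress and metabolic lists are read against the 5.05% of all genes that were lower. Of 30 measured Atf4 and amino acid response genes 0 were higher and 6 lower (median -0.28). With TPM 2 were higher and 3 lower (median 0.05). Ddit3, the transcription factor CHOP, was at 9.308 CPM in G9a CM and 38.26 CPM in WT TT2. Ddit3 had 3.378 CPM in the inhibitor control, below G9a CM. The same list had 9 higher and 0 lower members on day 2 of UNC0638, and 0 higher and 6 lower on day 4. Of 83 measured nuclear subunits of oxidative phosphorylation 0 were higher and 9 lower (median -0.36), or 2 and 4 with TPM (median -0.20). By CPM the median was 1.12 against the inhibitor control and -0.74 against WT J1. Mitochondrially encoded genes had 0 higher and 2 lower of 10 (median -0.45). Of these mt-Cytb had 6273 CPM in G9a CM and 20220 CPM in WT TT2, while mt-Co1 had 7797 CPM in G9a CM and 6376 CPM in WT TT2 and was not called. Lipid handling genes had 0 higher and 6 lower of 24, among them Lpl, lipoprotein lipase, on chromosome 8, with 6.126 CPM in G9a CM and 22.57 CPM in WT TT2, and Acot2 with 14.43 CPM in G9a CM and 46.68 CPM in WT TT2. Of 22 glycolysis genes 6 were higher and 0 lower (median 0.31), led by Tpi1, triosephosphate isomerase, with 1001 CPM in G9a CM and 384.8 CPM in WT TT2. Against the inhibitor control 1 glycolysis gene was higher and 12 lower, whereas against WT J1 11 of 22 were higher and 0 lower.

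Of 26 measured cell death genes 1 was higher and 4 lower, or 0 and 2 with TPM, and 3 of the 4 lie on chromosome 1 or 8. Besides Casp8 these were Cflar, its inhibitory paralogue, with 1.473 CPM in G9a CM and 4.994 CPM in WT TT2, and Mlkl, the executioner of necroptosis, with 0.7069 CPM in G9a CM and 5.545 CPM in WT TT2. The fourth, Ripk3, the kinase upstream of Mlkl, had 17.61 CPM in G9a CM and 39.76 CPM in WT TT2. Oxidative stress genes were higher for 3 of 25 and lower for 0, with Gpx2, a glutathione peroxidase, at 97.26 CPM in G9a CM and 18.44 CPM in WT TT2 and Hmox1, haem oxygenase, at 205.6 CPM in G9a CM and 71.97 CPM in WT TT2. Among signalling lists, 3 of 22 FGF and ERK genes and 3 of 26 BMP, Nodal and TGF-beta genes were higher and 0 lower. Where 5.40% of all genes were higher, counts of 3 in such lists say little. The BMP list includes Id2, a BMP target, at 243.2 CPM in G9a CM and 60.56 CPM in WT TT2. Of 16 Wnt genes 2 were higher and 4 lower, or 2 and 0 with TPM, and 2 of the 4 lower lie on chromosome 1 or 8. Of 87 cytosolic ribosomal protein genes 2 were higher and 1 lower, and the median of -0.06 turned to 0.11 with TPM. The remaining lists (sterol synthesis, p53 targets, hypoxia, cyclins, replication licensing and heat shock) had at most 2 members called in either direction.

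Part of the lower calls lay together on 2 chromosomes. Over genes with at least 10 CPM, the median log2 difference was -0.54 on chromosome 1 (472 genes) and -0.47 on chromosome 8 (425 genes), and between -0.08 and 0.16 on every other chromosome. On chromosome 1, 136 of 756 measured genes were lower (18%) and 11 higher (1.46%), and on chromosome 8, 90 of 719 were lower (12.5%) and 14 higher (1.95%). Without them 704 genes were higher and 456 lower, and 60.7% of calls were then higher. Against the inhibitor control the medians were -0.24 on chromosome 1 and -0.54 on chromosome 8, and -0.10 to 0.70 on the others. Against WT J1 they were -0.25 on chromosome 1 and -0.32 on chromosome 8. There chromosome 1 did not stand apart, since chromosome 14 was at -0.27 and X at -0.27, and chromosome 11 reached 0.55. In G9a/GLP DKO against WT TT2 the median was -0.58 on chromosome 1 and 0.03 on chromosome 8. The inhibitor control itself stood at -0.40 on chromosome 1 and 0.10 on chromosome 8 against WT TT2, and was lower still on chromosomes 3 (-0.55), 12 (-0.55), 13 (-0.60) and X (-0.67). The number of copies of these chromosomes in the lines was not tested. Named genes on chromosome 1 or 8 that were lower include Casp8, Cflar, Mlkl, Bag2, Neil3, Zfp42, Nr5a2, Lpl and Gas5.

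**Figure D4:**
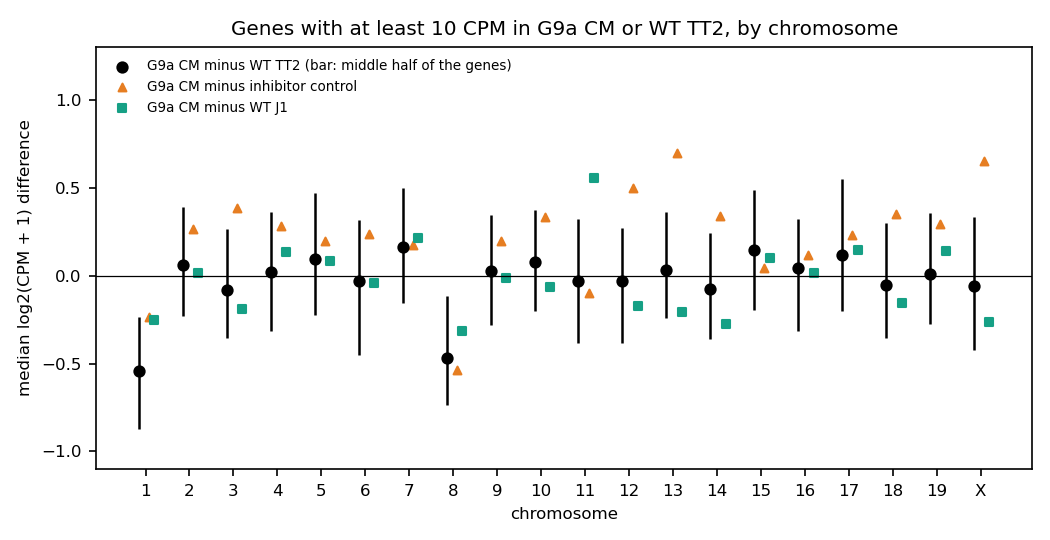
Median log2 difference of genes with at least 10 CPM on each chromosome for G9a CM over WT TT2, with bars from the lower to the upper quartile; triangles give the median of G9a CM over the inhibitor control and squares that over WT J1. Chromosomes 1 and 8 lie at -0.54 and -0.47 in the main comparison and below 0 in the other 2 as well, where against WT J1 chromosomes 14 and X lie as low as chromosome 1.

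The calls were compared with the inhibitor series, which shares no library with G9a CM or WT TT2. Day 2 of UNC0638 had 415 genes higher (3.12%) and 245 lower (1.84%) than the inhibitor control, day 4 had 255 higher (1.95%) and 88 lower (0.671%), and day 14 had 386 higher (2.91%) and 71 lower (0.535%). Of the genes higher in G9a CM and measured in both comparisons, 104 of 553 (18.8%) were higher on day 2, 124 of 576 (21.5%) on day 4 and 126 of 574 (22.0%) on day 14, against 2.92%, 1.78% and 2.05% of all genes. Read from the other side, 29.0% of the genes higher on day 2, 57.1% on day 4 and 50.2% on day 14 were higher in G9a CM. Over all genes measured in both, 4.5%, 4.72% and 4.69% were higher in G9a CM. In the opposite direction were 26 of 553, 8 of 576 and 7 of 574 genes on days 2, 4 and 14. Over all genes 1.8%, 0.573% and 0.515% were lower on those days. The 3 days share 1 control and are not independent of each other. Of the lower genes 8 of 610 (1.31%), 13 of 595 (2.18%) and 12 of 599 (2.0%) were lower on days 2, 4 and 14, against 1.8%, 0.573% and 0.515% of all genes. Of the same genes 23, 6 and 9 were higher on those days, where 2.92%, 1.78% and 2.05% of all genes were. From the other side, 3.62%, 18.6% and 19% of the genes lower on days 2, 4 and 14 were lower in G9a CM, against 4.96%, 4.87% and 4.89% of all genes.

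The families were also counted in the inhibitor series. Of the 28 listed genes of the 2-cell embryo 0 reached 1 CPM in the inhibitor control, so those measured (12 on day 2, 14 on day 4 and 22 on day 14) entered through the inhibitor library, and the counts of 11, 14 and 22 higher are largely fixed by that filter. With no minimum, 16, 18 and 26 of the 28 had an interval wholly above 1 and 0 wholly below. Of the Xlr genes, 4 of which reached 1 CPM in the inhibitor control, 3 of 6, 9 of 9 and 9 of 9 were higher, and with no minimum 6, 9 and 10 of the 10 had an interval wholly above 1. Of the Magea and Mageb genes 0 of 3, 1 of 3 and 2 of 5 were higher, and of the Rhox genes 1, 2 and 3 of 7. Histone genes were higher for 3 of 26, 1 of 22 and 0 of 27, and interferon genes for 1, 1 and 2 of 25. Whether these shares differ between families, or between G9a CM and an inhibitor day, was not tested, since each is 1 library against 1 and the number measured depends on the change itself.

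The DNA methyltransferase mutants shared more of the calls, on a larger background. Dnmt3a/3b DKO had 1268 genes higher (9.23%) and 1358 lower (9.88%) than WT J1, and Dnmt1/3a/3b TKO 1531 higher (11%) and 1482 lower (10.6%). Of the genes higher in G9a CM, 250 of 601 (41.6%) were higher in Dnmt3a/3b DKO and 289 of 632 (45.7%) in Dnmt1/3a/3b TKO, against 9.36% and 10.8% of all genes. These were 21.0% and 20.9% of the genes higher in the 2 mutants, where 4.73% and 4.93% of all genes were higher in G9a CM. In the opposite direction were 29 and 35 genes, where 9.14% and 10.1% of all genes were lower in the mutants. Of the lower genes, 173 of 643 (26.9%) and 172 of 644 (26.7%) were lower, against 9.14% and 10.1%. Of the genes lower in G9a CM, 28 and 35 were higher in the 2 mutants, against 9.36% and 10.8% of all genes. Of the Xlr genes 10 of 10 were higher in each of these mutants, of the Rhox genes 11 of 11 and 12 of 12, and of the Magea and Mageb genes 5 of 7 and 7 of 9. In WT J1 0 of these Xlr genes, 5 Rhox genes and 2 Magea and Mageb genes reached 1 CPM, so the rest were measured only through the mutants. With no minimum the interval was wholly above 1 for 10 of 10 Xlr genes in each mutant, for 13 of 34 Rhox genes in each, and for 9 and 10 of 24 Magea and Mageb genes, and wholly below 1 for 0. Histone genes were higher for 2 of 40 and lower for 3 in Dnmt3a/3b DKO. The G9a CM and J1 lines differ in strain as well as in genotype.

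**Figure D5:**
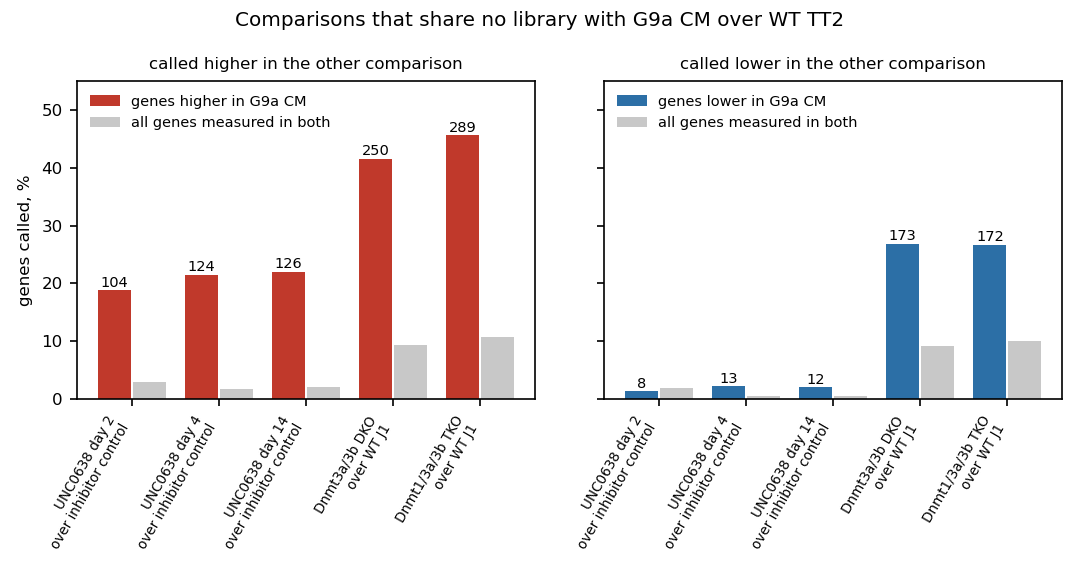
Percent of the genes called higher (left) or lower (right) in G9a CM that were called in the same direction in comparisons that share no library with it, beside the percent of all genes measured in both. For higher genes the shares run from 18.8% to 45.7% over backgrounds of 1.78% to 10.8%; for lower genes the inhibitor days lie at 1.31% to 2.18%.

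Promoters of the higher genes held fewer CpG than those of the measured genes as a whole. RefSeq gave an upstream window for 539 of the 729 higher genes, 496 of the 682 lower genes and 10155 of all measured genes. The median number of CpG in the 250 bases was 9 for higher genes, 13 for lower genes and 16 for all measured genes. At most 3 CpG, as in the Pramel6 and Elobl windows printed above, were found for 23.4% of higher genes, 9.07% of lower genes and 8.1% of all measured genes. Of the 27 windows of genes with a log2 difference of at least 3, 33.3% had at most 3. Over all 27025 windows of the table, most of them of genes not measured here, the share was 38.1% and the median 6. Of the higher genes 263 were under 1 CPM in WT TT2, so they were measured only through G9a CM. The groups of windows were not matched for expression level, so the part of the CpG difference that goes with low wild-type level was not tested. The median was 2 for the Magea and Mageb genes, 3 for 5 windows of 2-cell genes, 5 for the Rhox and 6 for the Xlr genes, but 15 for the germline and meiosis list.

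Motifs were counted on both strands in the same windows. CACGTG, a palindrome, occurred in 6.49% of windows of higher genes, 5.04% of lower genes, 8.53% of all measured genes and 6.05% of the whole table. In the germline and meiosis list it occurred in 13 of 40 windows (32.5%). TCCCGC, the core of an E2F site such as E2f6 reads, occurred in 19.7% of windows of higher genes, 28.6% of lower genes, 30.4% of all measured genes and 16.9% of the whole table, and in 40.0% of the germline and meiosis list. A match describes letters in a window and not binding. The number of CpG differs between these groups and was not matched.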

How the data were processed

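Per the labels' protocols, total RNA was made into libraries by Smart-seq2. STAR 2.5.3a, RSEM and GRCm38 (mm10) are named for alignment and quantification in the submitters' processing notes. No source used here names the annotation release or says if strand was used. The deposited files give, per gene, an expected count (RSEM divides a read among the genes it matches), a posterior standard deviation of that count, and TPM scaled for effective gene length by the authors, per the file headers. Members of near-identical families share such reads. Genes whose expected count was not whole held 15.79% to 20.69% of a library's total.

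Expected counts were rounded to whole numbers. CPM were computed with TMM factors over all 10 RNA libraries (edgeR 4.0.16, R 4.3.3) on the 15906 genes with at least 1 CPM in any of them. The 334 genes of chromosome Y were left out. A gene was called when log2(CPM + 1) differed by at least 1 and the exact 95% Clopper-Pearson interval of the count ratio left out 1. A fold against 0 counts used a floor of 3 counts, 0.177 CPM in G9a CM and 0.118 CPM in WT TT2. A symbol was matched to 99.7% of gene IDs and RefSeq coordinates to 97.2% of measured genes. Intervals and calls were computed with Python 3.11.15, numpy 2.4.6, pandas 2.3.3 and scipy 1.17.1, figures with matplotlib 3.10.9, and DESeq2 1.42.0 gave alternative size factors. The code of the size rule was run on simulated counts with counting error only, which does not cover variation between replicates or lines.

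Named genes were the targeted genes, the 24 higher and 16 lower protein-coding and 6 higher and 4 lower noncoding genes with the largest log2 difference among called genes. These needed at least 10 CPM in either library, a standard symbol and a posterior SD of at most 20% of the count. Up to 6 members of each list with at least 3 measured members were also named. The text gives them from the top of each order, with other list members where a group is described. The members and the 51 lists were chosen with earlier results of these data known. The other samples of the series were not analysed here.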

Additional observations from a re-analysis of the deposited data

How the results depend on the processing

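The counts of 729 higher and 682 lower genes stayed within 1.5 times under total-count scaling, TMM factors from the 2 libraries only, DESeq2 size factors, deposited TPM and removal of genes with a posterior SD over 20%. A minimum of 10 CPM left 361 higher and 386 lower genes, a pseudocount of 0.25 gave 1117 and 1085, and a log2 difference of at least 2 left 115 and 45, so that 71.9% of calls were higher. With no minimum the counts were the same, since the size rule itself needs 1 CPM. With the inhibitor control in place of WT TT2 there were 2808 higher and 3392 lower genes, and with WT J1 2155 and 2361. Without chromosomes 1, 8 and 11, 401 genes were lower and 61.3% of calls were higher. With TMM factors over all genes 674 genes were higher and 781 lower, so that 46.3% of calls were higher. Total-count scaling gave 806 higher and 613 lower genes (56.8% higher). Which direction had more calls thus depended on the scaling. TMM factors over all genes, and leaving out chromosomes 1 and 8, were added after seeing the data. The genes also higher on days 2, 4 and 14 of UNC0638 numbered 21, 24 and 31 with at least 10 CPM, and 4, 14 and 17 at a log2 difference of at least 2, where fewer genes pass by construction.

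Among 100 genes named in the report the direction of a called gene held under every scaling and with TPM, although with TPM the log2 difference of 60 of them moved beyond its counting interval. Of 88 list counts (higher and lower calls of a list), 24 moved by more than 1.5 times with TPM, 19 with at least 10 CPM, 58 with the inhibitor control and 52 with WT J1 as the wild type, and at most 3 under another scaling. Against the inhibitor control 8 of them turned over, to log2 differences of 1.89 for Slc24a5, 0.37 for Gas5, -0.76 for Dnmt3b, -0.51 for Dnmt3a, -3.73 for Pou5f1, 1.24 for Ddit3, 0.37 for B2m and 0.17 for mt-Cytb. Against WT J1 1 did, with 0.42 for Ccnd2. The causes were not tested. List medians of the Atf4, BMP, cell death and ribosomal protein lists changed sign with TPM, those of the hypoxia and MHC class I lists with total-count scaling, that of the hypoxia list also with TMM from the 2 libraries only, and that of the p53 targets with TMM over all genes. No paired analysis was possible because each group has 1 library. Depth limits statements on genes near 1 CPM.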
